A study of Mus musculus with 6 samples.

Results

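The cholesterol synthesis and sterol regulation genes are 28 listed genes, chosen by their known place in the pathway. Earlier results of these data were known when these genes were chosen. They run from the enzymes that build mevalonate to those that finish cholesterol, and then to the proteins that sense, carry, store and take up sterols. In the platform annotation used for these arrays, 26 of the 28 had at least 1 probe set that carried their gene alone. A probe set is a group of probes read together as 1 value for 1 transcript. The 26 genes had 58 such probe sets, among 45037 tested for 18193 genes. Acat2, the cytosolic thiolase at the start of the pathway, and Soat1, which esterifies cholesterol for storage, had none in that annotation, so their expression is not analysed here. The gene listed as Sc4mol is called Msmo1 below, its current symbol. Each gene was read at its probe set of highest mean over all 6 arrays, here called its brightest.

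RNA came from freshly dissected whole testes of adult mice on a hybrid background of C57BL/6 and CBA, and 1 Affymetrix whole-genome mouse array was hybridised per sample. There were 3 arrays from transgenic mice, which carry a constitutively active mutant of DREAM, and 3 arrays from wild-type mice of the same background. DREAM is the product of Kcnip3, a transcriptional repressor that calcium releases from its target sites. The promoter that drives the transgene is not given in the sources used here. The submitters describe the samples as independent biological replicates. Fewer cells of a type and less RNA per cell cannot be told apart in such whole-tissue samples.

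Animal cells build cholesterol from acetyl-CoA. Mevalonate is turned into isoprenoid units, these are joined into squalene, squalene is closed into lanosterol, and a series of oxidations and reductions turns lanosterol into cholesterol. When membranes of the endoplasmic reticulum are poor in sterol, Scap carries the SREBP transcription factors to the Golgi, where they are cut and released to switch on most genes of the pathway. When sterol is plentiful, the Insig proteins hold Scap back. In the testis, Leydig cells use cholesterol to make testosterone, and germ cells accumulate intermediates formed near the Cyp51 step that are known as meiosis-activating sterols.

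The 5 genes with the smallest p in the comparison of genotypes were Sc5d, Pmvk, Ggps1, Hmgcs1 and Cyp51, and none of them passed the test. The bases just before their starts are shown because the pathway is known to be controlled through short promoter elements. Each line gives the 250 bases upstream of an annotated start (RefSeq, build GRCm38.p6), 5′ to 3′ on the gene's strand. Capitals mark matches on either strand to the sterol regulatory element TCACNCCAC, to the CCAAT box bound by NF-Y (CCAAT or ATTGG), and to TGACG or CGTCA, the short form of the cyclic AMP response element. For Pmvk, the upstream window of a pair of annotated starts is given.
Hmgcs1, chr13:119690101-119690350, plus strand: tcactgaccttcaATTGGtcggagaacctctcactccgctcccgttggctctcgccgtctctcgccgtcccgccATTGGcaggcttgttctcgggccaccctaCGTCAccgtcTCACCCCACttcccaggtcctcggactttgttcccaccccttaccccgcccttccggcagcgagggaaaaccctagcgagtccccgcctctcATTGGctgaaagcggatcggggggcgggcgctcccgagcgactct
Pmvk, chr3:89454291-89454540, plus strand: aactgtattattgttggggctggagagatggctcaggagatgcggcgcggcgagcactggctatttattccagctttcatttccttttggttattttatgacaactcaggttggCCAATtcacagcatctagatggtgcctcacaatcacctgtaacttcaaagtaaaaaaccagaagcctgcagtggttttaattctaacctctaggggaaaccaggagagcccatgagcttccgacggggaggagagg
Ggps1, chr13:14063489-14063738, minus strand: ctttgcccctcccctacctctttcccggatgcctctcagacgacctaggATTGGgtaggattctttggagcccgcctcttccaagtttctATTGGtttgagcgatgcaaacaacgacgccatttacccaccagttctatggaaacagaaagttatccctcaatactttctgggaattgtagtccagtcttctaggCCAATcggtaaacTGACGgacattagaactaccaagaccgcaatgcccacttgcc
Cyp51, chr5:4104698-4104947, minus strand: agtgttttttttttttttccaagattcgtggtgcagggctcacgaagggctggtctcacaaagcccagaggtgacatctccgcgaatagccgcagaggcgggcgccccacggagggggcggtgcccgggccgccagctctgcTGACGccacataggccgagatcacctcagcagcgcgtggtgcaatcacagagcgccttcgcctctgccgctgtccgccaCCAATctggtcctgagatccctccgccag
Sc5d, chr9:42264301-42264550, minus strand: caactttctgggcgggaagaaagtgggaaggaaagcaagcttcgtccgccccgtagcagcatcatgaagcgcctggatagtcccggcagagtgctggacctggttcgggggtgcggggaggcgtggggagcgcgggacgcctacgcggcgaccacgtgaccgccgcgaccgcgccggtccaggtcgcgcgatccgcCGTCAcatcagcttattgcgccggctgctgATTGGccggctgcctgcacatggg
The Hmgcs1 window holds the exact sterol element, beginning 137 bases before the start, and CCAAT matches beginning 237, 176 and 45 bases before it. Cyp51 holds TGACG beginning 108 bases before the start and a CCAAT match 29 bases before it. Cyp51 is known from work on its promoter to be switched on through such an element by CREM in haploid germ cells.

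Of the 28 listed genes, 23 matched the RefSeq promoter table, with 31 windows. These include Acat2 and Soat1, whose expression was not analysed. Fdps, Fdft1, Sqle, Stard4 and Scarb1 had no window and were not searched. The exact sterol element was in 1 of the 31 windows, that of Hmgcs1, and in 1.05% of all 32851 windows in the table. Variants of TCACNCCAC were not counted, so this does not show that the other windows lack a sterol element. The E-box CACGTG, also searched as a sterol element, was in 5 of the 31 (16.1%), against 6.02% of all windows and 6.63% of those of protein-coding genes. These were windows of Dhcr7, Hsd17b7, Insig1, Sc5d and Scap, and the match is not in capitals in the Sc5d window above. A CCAAT box was in 22 of the 31 (71.0%), against 33.8% of all windows and 35.4% of the windows of protein-coding genes. The GC box GGGCGG or its reverse CCGCCC was in 23 of the 31 (74.2%), against 32.7% of all windows and 42.6% of those of protein-coding genes. TGACG or CGTCA was in 9 windows (29.0%), against 17.8% of all and 20.2% of those of protein-coding genes. GTCA or its reverse TGAC, the core of the element that DREAM binds, was in 26 windows (83.9%), against 80.2% of all windows and 78.5% of those of protein-coding genes. Every TGACG or CGTCA match also contains that core. These are matches of letters, and binding was not measured.

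None of the 26 sterol genes passed the test of transgenic against wild-type testis (0 of 26 at a limma adjusted p under 0.05, Benjamini-Hochberg over all probe sets, against 0.616% of all 18193 genes). At an unadjusted p under 0.05 there were 3 of 26, or 1 higher and 2 lower, against 7.48% of all genes. The groups did not overlap for 4 of the 26, Sc5d higher and Hmgcs1, Pmvk and Ggps1 lower in transgenic testis, against 12.5% of all genes. The median log2 change was 0.02 (transgenic minus wild type) over the 26 genes and 0.02 over all genes. Of the 26, 14 lay above 0, 11 below 0 and 1 at 0. Of the 58 probe sets 0 passed (limma), against 0.444% of all probe sets, and 4 had an unadjusted p under 0.05, against 6.69% of all. The groups did not overlap for 6 of the 58, against 11.3% of all probe sets. With limma's array weights, whose estimation stopped before convergence and which called 4160 of all probe sets in place of 200, 3 of the 26 genes passed (Sc5d, Nsdhl and Dhcr7, all higher).

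The arrays bounded how large a change could have been missed. All 26 limma 95% intervals lay between -0.58 and 0.59 on the log2 scale, so none reached a 2-fold change of intensity in either direction. The interval lay within 0.5 of 0 for 23 of the 26 genes, which is 88.5%, and for 87.0% of all genes. The standard errors of the sterol genes ran from 0.08 to 0.15. These bounds are on intensity, since the deposited values carry no detection call.

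**Figure D1:**
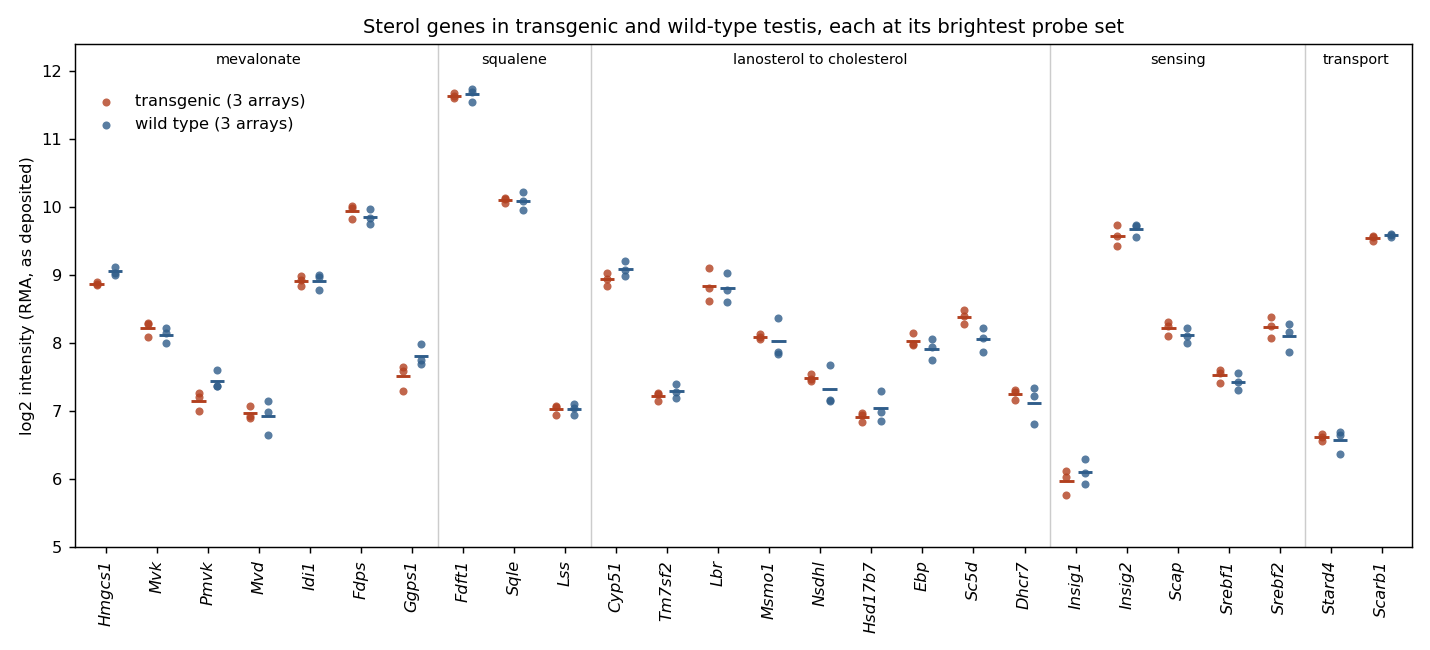
Log2 intensity of the 26 sterol genes in pathway order, each at its brightest probe set, with 1 point per array (transgenic left, wild type right) and a line at each group mean. The groups stand apart for Hmgcs1, Pmvk and Ggps1, which were lower in transgenic testis, and for Sc5d, which was higher, and none of these passed the test; heights of different genes cannot be compared, because each probe set has its own response.

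The mevalonate steps held the most negative values of the set. Pmvk, the phosphomevalonate kinase, read 7.27, 7.21 and 7.0 in the transgenic arrays, against 7.61, 7.37 and 7.37 in the wild-type arrays (log2 intensity). Every transgenic array lay below every wild-type array. The change of -0.29 (SE 0.11, 95% interval -0.54 to -0.04) did not pass, with a limma adjusted p of 0.641 and an unadjusted p of 0.0277.

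Ggps1, which makes the geranylgeranyl diphosphate used to anchor small GTPases in membranes, read 7.60, 7.65 and 7.30 in the transgenic arrays, against 7.69, 7.99 and 7.76 in wild type. The groups did not overlap, although transgenic replicate 2 and wild type replicate 1 were close. The change was -0.30 (SE 0.12, limma adjusted p = 0.717). The other 3 probe sets of Ggps1 also lay below 0, between -0.10 and -0.06. The Gapdh 3' minus 5' log2 difference, a measure of RNA integrity, was 0.21, 0.26 and 0.33 in the transgenic arrays and 0.16, 0.06 and 0.11 in the wild-type arrays, without overlap. The same difference for actin overlapped, at 0.53, 0.47 and 0.49 in the transgenic arrays and 0.50, 0.41 and 0.50 in the wild-type arrays. With the Gapdh difference as a covariate the sign of Ggps1 turned, to 0.14. Because the Gapdh difference separates the groups, its part and that of the genotype cannot be told apart.

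Hmgcs1, the cytosolic synthase of the mevalonate route and a standard target of SREBP, read 8.90, 8.87 and 8.86 in transgenic testis, against 9.12, 9.04 and 9.01 in wild type. The transgenic arrays were all lower and lay close together. The change was -0.18 (SE 0.08, limma adjusted p = 0.774). Its 5 probe sets gave no common direction. Another probe set also read -0.18 with groups that did not overlap (adjusted p = 0.8), while a further pair read 0.17 and 0.20 with overlapping groups (adjusted p = 0.866 and 0.873), and the dimmest read -0.10 (adjusted p = 0.964).

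The remaining enzymes of this stretch had small differences. Mvk, the mevalonate kinase, averaged 8.22 ± 0.12 in transgenic and 8.12 ± 0.11 in wild-type testis (log2, SD, n = 3 each), a difference of 0.10. Mvd, which decarboxylates mevalonate diphosphate, averaged 6.97 ± 0.09 in transgenic and 6.94 ± 0.25 in wild-type testis. Idi1, the isomerase of the isoprenoid unit, averaged 8.92 in both groups, with SDs of 0.08 in transgenic and 0.12 in wild-type arrays. Fdps, which joins isoprenoid units into farnesyl diphosphate, averaged 9.95 ± 0.10 in transgenic and 9.86 ± 0.12 in wild-type testis. The limma adjusted p of these 4 genes ran from 0.955 to 1, and the groups overlapped for each.

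The enzymes that make and close squalene read nearly alike in the group means. Fdft1, squalene synthase, averaged 11.64 ± 0.04 in transgenic and 11.66 ± 0.11 in wild-type testis (log2, SD, n = 3 each). Sqle, squalene epoxidase and a rate-controlling enzyme of this part of the pathway, averaged 10.10 ± 0.04 in transgenic and 10.09 ± 0.14 in wild-type testis. Lss, the lanosterol synthase, averaged 7.03 ± 0.07 in transgenic and 7.03 ± 0.09 in wild-type testis. The 95% intervals of the differences in these 3 genes lay between -0.23 and 0.23, and their adjusted p ran from 0.991 to 0.995 (limma).

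Among the 9 genes between lanosterol and cholesterol, 6 lay above 0 and 3 below, with a median of 0.07 (all genes 0.02), and none passed. Sc5d, a sterol desaturase near the end of the pathway, gave the highest value of the whole set. It read 8.40, 8.29 and 8.49 in the transgenic arrays, against 7.87, 8.23 and 8.08 in wild type. The groups did not overlap, and transgenic replicate 2 lay just above wild type replicate 2. The change was 0.33 (SE 0.11, 95% interval 0.08 to 0.59, unadjusted p = 0.0161, limma adjusted p = 0.52). Its other probe sets read -0.07 and -0.02 (adjusted p = 0.982 and 0.993).

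Cyp51, the lanosterol demethylase, read 9.04, 8.84 and 8.95 in the transgenic arrays, against 8.99, 9.21 and 9.08 in wild type. The groups overlapped, with transgenic replicate 1 above wild type replicate 1. The change was -0.15 (SE 0.10, limma adjusted p = 0.893), and its dimmer probe sets read -0.07 and -0.01.

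Nsdhl, a sterol dehydrogenase that takes part in removing methyl groups, read 7.44, 7.55 and 7.48 in the transgenic arrays, against 7.16, 7.68 and 7.17 in wild type. Wild type replicate 2 was the highest of all arrays and the other wild-type arrays the lowest. The change was 0.15 (SE 0.14, limma adjusted p = 0.942). Msmo1, the oxidase of the same demethylation, also had wild type replicate 2 highest and the other wild-type arrays lowest, at 8.07, 8.14 and 8.09 in transgenic testis, against 7.88, 8.37 and 7.85 in wild type (change 0.07, adjusted p = 0.98).

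Ebp, the sterol isomerase, read 8.15, 7.97 and 7.99 in the transgenic arrays, against 7.76, 8.06 and 7.95 in wild type. Wild type replicate 1 was the lowest and transgenic replicate 1 the highest, and the rest overlapped. The change was 0.11 (SE 0.11, limma adjusted p = 0.946).

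Hsd17b7, which reduces the sterol ketone left by demethylation, read 6.94, 6.97 and 6.84 in the transgenic arrays, against 7.30, 6.86 and 6.99 in wild type with its brightest probe set. Wild type replicate 1 was the highest and the rest overlapped. The change was -0.13 (SE 0.12, limma adjusted p = 0.942). Its other 3 probe sets lay above 0, at 0.32, 0.19 and 0.06 (adjusted p = 0.9, 0.86 and 0.98), so this gene had no single direction. Probes of the brightest one may also match other transcripts, by its class (a name ending in _x_at).

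Dhcr7, the reductase that completes cholesterol in a branch of the route, averaged 7.26 ± 0.08 in transgenic and 7.13 ± 0.28 in wild-type testis (log2, SD, n = 3 each). Tm7sf2 and Lbr both encode a sterol reductase that acts after Cyp51, and Lbr also holds lamins at the nuclear envelope. Tm7sf2 averaged 7.22 ± 0.06 in transgenic and 7.29 ± 0.11 in wild-type testis. Lbr averaged 8.85 ± 0.24 in transgenic and 8.81 ± 0.21 in wild-type testis. The groups overlapped for all 3 genes, and their limma adjusted p ran from 0.959 to 0.989.

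The sensors and transcription factors of the pathway overlapped between the groups in every case. Srebf2, which encodes the SREBP form that mainly drives cholesterol genes, read 8.26, 8.08 and 8.39 in the transgenic arrays, against 8.17, 7.87 and 8.28 in wild type. Wild type replicate 2 was the lowest array. The change was 0.14 (SE 0.13, limma adjusted p = 0.946), and the other probe set of Srebf2 read -0.23 (adjusted p = 0.913).

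Srebf1, whose products mainly drive fatty acid genes, read 7.61, 7.56 and 7.42 in the transgenic arrays, against 7.31, 7.57 and 7.43 in wild type. The change was 0.09 (SE 0.10, limma adjusted p = 0.96). The arrays of both groups were interleaved. Its single probe set does not separate the SREBP forms made from this gene.

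Scap, the sterol-sensing escort of the SREBPs, read 8.31, 8.11 and 8.25 in transgenic testis, against 8.01, 8.23 and 8.11 in wild type. The change was 0.11 (SE 0.10, limma adjusted p = 0.945), with interleaved arrays. Its other probe set read 0.09.

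Insig1 is itself a target of SREBP and so serves as a readout of the pathway in many tissues. It read 6.04, 6.13 and 5.77 in the transgenic arrays, against 5.94, 6.30 and 6.09 in wild type. Transgenic replicate 3 was the lowest and wild type replicate 2 the highest. The change was -0.13 (SE 0.13, limma adjusted p = 0.95). Insig2, the relative that retains Scap in the same way, read 9.74, 9.43 and 9.58 in transgenic testis, against 9.57, 9.73 and 9.74 in wild type (change -0.10, SE 0.11, adjusted p = 0.96). Its other probe sets read -0.04 and 0.14.

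Stard4, a cytosolic sterol carrier, averaged 6.62 ± 0.05 in transgenic and 6.58 ± 0.17 in wild-type testis with its brightest probe set. Its dimmer probe sets read lower in transgenic testis, at -0.24 and -0.19 (limma adjusted p = 0.603 and 0.855), with groups that did not overlap for the first. Scarb1, the receptor that takes up cholesteryl esters from high-density lipoprotein, averaged 9.55 ± 0.04 in transgenic and 9.59 ± 0.03 in wild-type testis. Its 3 probe sets read from -0.04 to 0.00. Over the 17 sterol genes with more than 1 probe set, 10 had probe sets on both sides of 0. Dim probe sets count here too. The other probe set of Fdps averaged 3.66 over all 6 arrays and the dimmest of Hsd17b7 4.32. The lower quartiles of the arrays lay between 4.71 and 4.84.

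Wild type replicates 1 and 2 often held the extremes. Wild type replicate 2 gave the highest value of all 6 arrays for 12 of the 26 genes (46.2%), against 25.4% of all genes, and the highest of the 3 wild-type arrays for 18 of them (69.2%), against 46.2% of all genes. Wild type replicate 1 was the lowest of the 6 for 10 of the 26 (38.5%), against 24.6% of all genes. In the lanosterol to cholesterol stretch the median deviation from the 6-array mean was 0.03, -0.01 and 0.01 in the transgenic arrays and -0.19, 0.16 and -0.07 in the wild-type arrays. In the mevalonate stretch it was -0.04, -0.05 and -0.07 in the transgenic arrays and 0.05, 0.07 and 0.04 in the wild-type arrays. Even so, the log2 changes of the 7 mevalonate genes had a median of 0, with 3 above 0, 3 below and 1 at 0. Wild type replicate 2 also stood apart over all probe sets, at 42.2 on the first principal component, which holds 38.9% of the variance, where the other arrays lay between -23.3 and 5.27.

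Without wild type replicate 2, the sterol genes still held 0 calls at a limma adjusted p under 0.05, against 1.25% of all genes. At an unadjusted p under 0.05 there were 4 of 26, against 13.1% of all genes. There Nsdhl read 0.33 (unadjusted p = 0.0054, adjusted p = 0.183), Sc5d 0.42 (unadjusted p = 0.003, adjusted p = 0.137), Pmvk -0.33 (unadjusted p = 0.0183, adjusted p = 0.306) and Msmo1 0.24 (unadjusted p = 0.0266, adjusted p = 0.353). Over all alternatives run, the limma adjusted p of Nsdhl ran from 0.035 to 0.998, that of Sc5d from 0.0239 to 0.998, that of Pmvk from 0.101 to 0.998 and that of Msmo1 from 0.0773 to 0.998. Over the leave-out of each array in turn, Sc5d ran from 0.24 to 0.42 and Pmvk from -0.35 to -0.21.

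**Figure D2:**
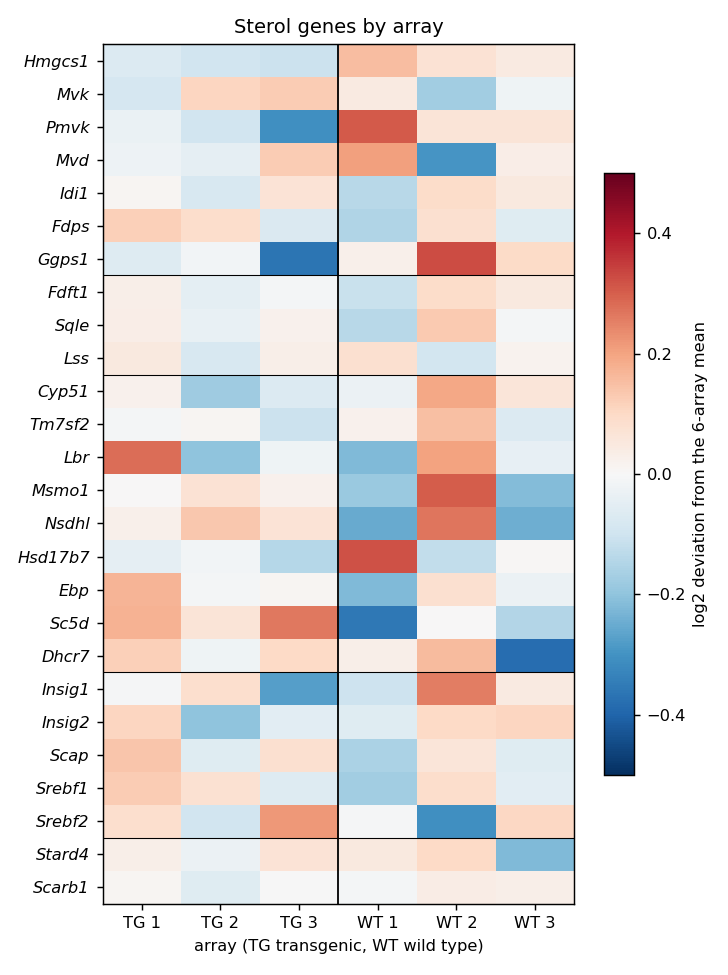
Deviation of each sterol gene (rows, pathway order) from its mean over all 6 arrays, in log2 units, with the 3 transgenic arrays left of the 3 wild-type arrays. Wild type replicate 2 is the highest of the 6 arrays in 12 of 26 rows, and wild type replicate 1 the lowest in 10.

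The pathways that branch from or feed on cholesterol synthesis were read through 6 companion lists with 95 genes, of which 82 had a probe set of their own. At a limma adjusted p under 0.05, 1 companion gene was higher and 1 lower (0.616% of all genes passed). The list of isoprenoid branches (12 of 13 measured, median -0.01) held the lower one. Fntb encodes the beta subunit of farnesyltransferase, which uses the product of Fdps to attach farnesyl groups to proteins. It read 6.62, 6.72 and 6.66 in the transgenic arrays, against 7.42, 7.45 and 7.55 in wild type. The groups lay well apart relative to their spread. Fntb fell by 0.81 on the log2 scale (SE 0.09, adjusted p = 0.00453), on the 1 probe set that carries this gene alone. With the Gapdh difference as a covariate Fntb read -0.81 (SE 0.17) and did not pass (limma adjusted p = 0.229, where the alternatives ran from 2.59e-05 to 0.229).

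The steroid hormone list (7 of 10 measured, median 0.03) held the higher one, Hsd3b1, the dehydrogenase that turns pregnenolone into progesterone, at 9.97, 9.87 and 9.75 in transgenic testis, against 8.20, 8.64 and 8.30 in wild type (limma log2 change 1.48, SE 0.13, adjusted p = 0.00109). That value rests on the 1 probe set that carries Hsd3b1 alone, and Hsd3b6, also listed, had no probe set of its own. Hsd17b3, which makes testosterone, read 9.22, 9.25 and 8.69 in transgenic testis, against 7.76, 8.49 and 8.18 in wild type. Its groups did not overlap, and the change of 0.91 did not pass (limma adjusted p = 0.146). It passed without wild type replicate 2 (1.08, adjusted p = 0.0233) and with the Gapdh covariate (1.81, adjusted p = 0.0496), and its adjusted p over the alternatives ran from 0.00229 to 0.581. Star and Tspo, which bring cholesterol to the mitochondria, read 0.01 and 0.02, and Cyp11a1, which cleaves its side chain, read -0.06.

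No gene passed in the other 4 lists (limma). At an unadjusted p under 0.05 there were 0 of 12 measured SREBP processing and sensing genes (median 0.02), 0 of 7 paralogues and redox partners (median 0.11), 2 of 26 genes of sterol transport, storage and oxysterols (median 0.03) and 4 of 18 fatty acid synthesis genes (median 0.04), against 7.48% of all genes. Scd1, the stearoyl-CoA desaturase and a standard target of Srebf1, read 8.0, 7.53 and 7.48 in transgenic testis, against 7.37, 7.09 and 6.90 in wild type. Its groups did not overlap, and the change of 0.55 (SE 0.16) had a limma adjusted p of 0.383. Acss2, which makes acetyl-CoA from acetate, read 0.30 (adjusted p = 0.482). Mylip, the ligase that removes lipoprotein receptors, read 0.25 and Osbpl8, an oxysterol-binding protein relative, -0.25 (adjusted p = 0.55 and 0.685). Among the others, Pgrmc1, a membrane haem-binding protein, read 0.13, Erlin2, of the machinery that breaks down proteins of the endoplasmic reticulum, 0.16, Ebpl, a relative of Ebp, 0.29 and Idi2, a relative of Idi1, 0.12 (adjusted p from 0.837 to 0.929).

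**Figure D3:**
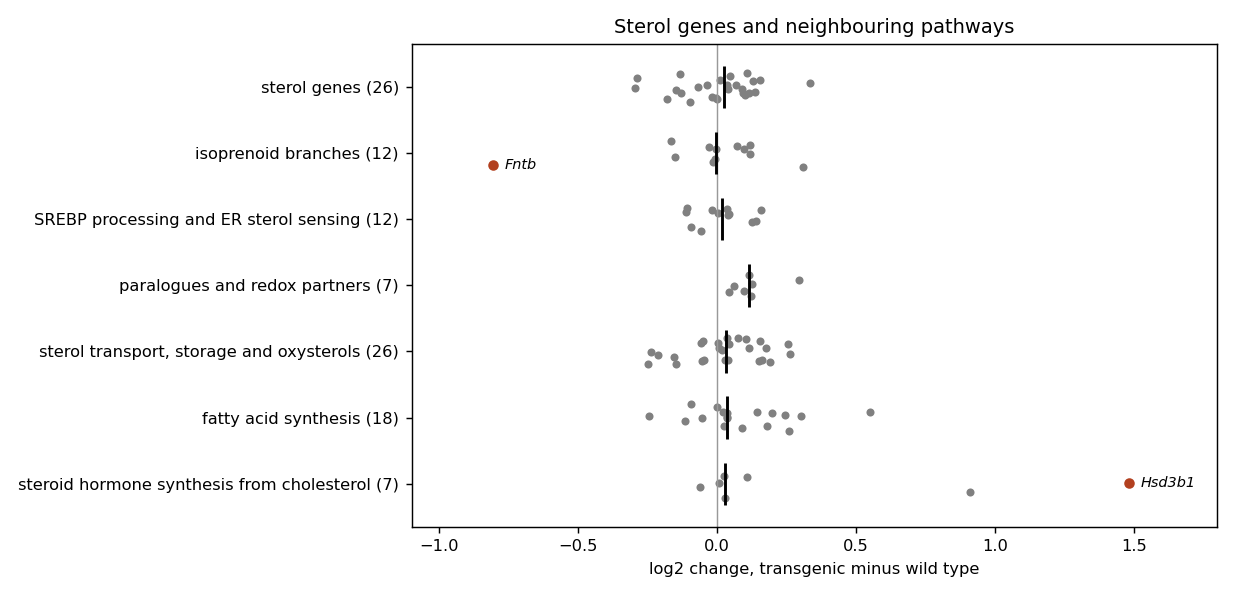
Log2 change (transgenic minus wild type) of the 26 sterol genes and of the measured genes of 6 companion lists, 1 point per gene, with list medians as vertical bars. Coloured and named points passed a limma adjusted p of 0.05, and these were Fntb at -0.81 and Hsd3b1 at 1.48; no sterol gene did.

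Markers bore out the tissue label: the spermatid genes Prm1, Prm2, Tnp1, Tnp2 and Odf1 read between 13.4 and 14.1 on all 6 arrays. Kcnip3 read 7.27 ± 0.11 in transgenic and 7.21 ± 0.11 in wild-type testis (log2, SD, n = 3 each) with its brighter probe set (limma adjusted p = 0.974). The sources used here do not say whether its probe sets would read the transgene, so the genotype labels were not checked by it. Mean log2 levels of some marker lists did not overlap between the groups, some of them by a narrow margin. Among all the markers only Hsd3b1 and Cst9 passed a limma adjusted p under 0.05. No spermatocyte, endothelial, macrophage, epididymal or adipose marker did. How often other lists of such sizes separate the groups was not tested. The 6 spermatocyte markers averaged 8.85 to 8.92 on transgenic and 9.06 to 9.18 on wild-type arrays. The 7 Sertoli markers averaged 8.12 to 8.22 on transgenic and 8.47 to 8.58 on wild-type arrays, but the log2 change of Cst9 was -2.35 and the median change of the list was -0.01, with 3 of 7 above 0. The 4 measured Leydig markers averaged 9.88 to 10.05 on transgenic and 9.52 to 9.75 on wild-type arrays. Of these the log2 change was 1.48 for Hsd3b1 and 0.01, 0.03 and -0.06 for Star, Cyp17a1 and Cyp11a1. The 5 endothelial markers averaged 5.47 to 5.54 on transgenic and 5.22 to 5.31 on wild-type arrays. The 5 macrophage markers averaged 6.64 to 6.73 on transgenic and 6.39 to 6.63 on wild-type arrays, the 4 measured epididymal markers 5.92 to 5.97 on transgenic and 5.63 to 5.90 on wild-type arrays, and the 3 measured adipose markers 6.97 to 7.22 on transgenic and 6.64 to 6.94 on wild-type arrays. Among the epididymal markers the log2 change was 0.44 for Defb15 and 0.04, 0.07 and 0.07 for Lcn5, Lcn8 and Adam7. Among the adipose markers it was 0.47 for Fabp4 (SE 0.30), 0.20 for Retn and 0.03 for Adipoq. The spermatogonial, round spermatid, elongating spermatid and myoid lists overlapped between the groups. The part of these cell types in the values of the sterol genes was not tested.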

How the data were processed

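Per the labels, biotin-labelled cRNA from 4 µg of total testis RNA was hybridised to Affymetrix arrays. The authors deposited 1 log2 intensity per probe set and array, made with RMA in the affy package, per the submitters' processing notes. Versions and parameters are not given in the sources used here. RMA forces the arrays to near-common distributions, so a shift of all transcripts cannot be seen. There is no read depth, and the number of arrays, 3 per group, limits the precision.

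Of 45101 probe sets, 64 controls were left out. Names came from the platform annotation, updated through a RefSeq gene table (GRCm38.p6). Of the probe sets 34945 carried 1 gene, 932 several and 9160 none, and 34741 of the first matched RefSeq. The comparison, transgenic minus wild type, used limma 3.58.1 under R 4.3.3 (lmFit and eBayes, two-sided, no filter on dim probe sets), with adjustment over 45037 probe sets. The test was checked on simulated data. Values per array are printed for the 10 sterol genes of smallest p and for Srebf1, Srebf2, Scap, Insig1 and Insig2, and Msmo1 was added after its values were seen. In companion lists, the genes past the threshold or else the 2 of smallest p are named, and Hsd17b3, Star, Tspo, Cyp11a1 and Cyp17a1 were added after their values were seen. The members and lists were chosen with earlier results of these data known. What genes are known to do is given as background.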

Additional observations from a re-analysis of the deposited data

How the results depend on the processing

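The count of 0 sterol genes past the threshold held in all alternatives run but 1 (the lowest 40% of probe sets dropped, median centring, quantile normalization again, eBayes with trend and robust settings, the replicate block, the Gapdh covariate, each array left out, probe sets of the _x_at, _s_at and _a_at classes left out, averaged probe sets and an adjusted p under 0.1). So did that of 0 sterol probe sets, for which averaging was not run. The exception was array weights, whose estimation stopped before convergence and which raised the calls over all probe sets from 200 to 4160. There 3 sterol genes (Nsdhl 0.31, Sc5d 0.32 and Dhcr7 0.43), 5 sterol probe sets and 15 companion genes passed. Calls over all probe sets numbered 306 with trend and robust settings, 117 with the block, 18 with the Gapdh covariate, 70 to 75 without wild type replicate 3 or any 1 transgenic array, and 429 without wild type replicate 2. The median change of the sterol genes was 0.12 with the Gapdh covariate, and the cause was not tested. It ran from -0.01 to 0.04 as each array was left out.

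Signs of small changes turned over. With the Gapdh covariate Cyp51 read 0.046, Fdft1 0.13, Ggps1 0.14, Insig1 0.33, Insig2 0.11, Mvd -0.41, Mvk -0.19, Srebf2 -0.18 and Tm7sf2 0.10. With array weights Mvd read -0.017, Srebf2 -0.029 and Tm7sf2 0.029. Without probe sets of the _x_at, _s_at and _a_at classes, which leaves another probe set as the brightest, Fdft1 read 0.023, Hmgcs1 0.20, Hsd17b7 0.32 and Mvd -0.020. With averaged probe sets Fdft1 read 0.044, Fdps -0.0083, Hsd17b7 0.11, Srebf2 -0.048 and Stard4 -0.13. With median centring Sqle read -0.013. As each array was left out, Dhcr7 ran from -0.028 to 0.24, Fdft1 from -0.080 to 0.020, Lbr from -0.090 to 0.15, Lss from -0.050 to 0.037, Msmo1 from -0.025 to 0.24, Mvd from -0.10 to 0.15, Sqle from -0.057 to 0.078 and Stard4 from -0.052 to 0.11. In all, 36 of 413 values of single sterol genes were counted as changed in sign, and these fell in 18 genes, while 8 genes had none counted. Idi1 was among the 8 only because its main value was 0, which has no sign to change. It ran from -0.070 to 0.045 as each array was left out. The 413 include values that could not turn. Dropping dim probe sets, the trend and robust settings, the replicate block and the adjusted p under 0.1 left each log2 change as in the main fit. Where no other cause is given, the cause was not tested. Hsd3b1 passed in each alternative, and Fntb in each but the Gapdh covariate. Hsd17b3 passed with array weights, with the Gapdh covariate and without wild type replicate 2.

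Replicate numbers are shared between the groups, but deviations from the group means of same-numbered arrays correlated at -0.319, -0.065 and -0.012, so the numbers do not pair the samples. With the replicate block 0 sterol genes and 2 companion genes passed. The groups did not overlap for Sc5d, Pmvk and Ggps1 and their unadjusted intervals left out 0, but none of them passed after adjustment over 45037 probe sets.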
